A study of Mus musculus with 12 samples.

Results

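The cystine import and glutathione defence genes described here are 10: Slc7a11, Slc3a2, Gclc, Gclm, Gss, Gsr, Gpx4, Gpx1, Nfe2l2 and Hmox1. They were taken by symbol from a table of 36121 genes measured in the spinal cord of 12 mice, and each symbol had a single row. The set was assembled around Slc7a11 because its level fell in the cKO mice. The values of Slc7a11 in comparisons with cKO are therefore given as a description with no test. The other 9 genes joined it by function. They and the gene lists below were chosen with earlier results of these data known. All mice were C57BL6, 3 months old, with 2 males and 2 females in each group of 4 by the labels. The control group was Tardbp-fl/fl without Cre, the cHet group was Gfap-Cre; Tardbp-fl/+, and the cKO group was Gfap-Cre; Tardbp-fl/fl. Tardbp encodes TDP-43, a nuclear RNA-binding protein, and Cre was driven by the promoter of the astrocyte gene Gfap. The control mice lacked Cre, so against control a Cre effect and a deletion effect cannot be told apart, whereas cHet and cKO both carried Cre.

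Cystine enters cells through a transporter made of a light chain, encoded by Slc7a11, and a heavy chain, encoded by Slc3a2, in exchange for glutamate. Cystine is reduced to cysteine, joined to glutamate by glutamate-cysteine ligase (catalytic subunit Gclc, modifier subunit Gclm) and completed to glutathione by glutathione synthetase (Gss). Glutathione peroxidases such as Gpx1 and Gpx4 spend it to reduce peroxides, and glutathione reductase (Gsr) restores it. Nfe2l2 encodes NRF2, the transcription factor that drives many of these genes under oxidative stress, and Hmox1, which encodes heme oxygenase 1, is a classical NRF2 target. In the nervous system astrocytes hold much of this pathway and supply neurons with glutathione precursors.

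In cKO cord the light chain gene Slc7a11 stood at 0.432 of its control level, while the heavy chain gene Slc3a2 rose to 1.30 times control, and the peroxidase genes Gpx4 and Gpx1 rose to 1.12 and 1.15 times control (ratios of means, n = 4 per group). With libraries scaled to a common total the Slc3a2 call held, while the log2 changes of Gpx4 and Gpx1 went from 0.16 to 0.07 and from 0.20 to 0.11 and were not called (limma adjusted p = 0.133 and 0.0930). The glutathione synthesis genes Gclc and Gclm, the reductase gene Gsr and Nfe2l2 were not called. Gss (0.874 times control) and Hmox1 (1.32 times control) had separate control and cKO values but adjusted p values just above 0.05 (limma, 0.0508 and 0.0652). In cHet against control no member was called, and neither was any of the 15259 genes tested.

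Values are the authors' normalized TPM, which corrects for transcript length, and a gene was called at a limma adjusted p under 0.05 over the 15259 genes whose mean reached 1 TPM. Log2 changes are on the log2(TPM + 0.5) scale, which understates changes of low genes such as Slc7a11. The multiples of control given above are ratios of mean TPM, with nothing added. TPM keeps no depth, so read depth is unknown; the 12 libraries had 15188 to 15384 genes at 1 TPM or more. Their summed values ran from 954895 to 978621 in control, 983452 to 1023987 in cHet and 1017855 to 1048381 in cKO, so the scaling between libraries bears on small changes. Tardbp, the deleted gene, was at 171 ± 6.73 TPM in control mice, 170.4 ± 8.64 TPM in cHet mice and 148 ± 5.06 TPM in cKO mice (SD, n = 4), with a log2 change of -0.20 in cKO against control (limma adjusted p = 0.0113). Markers of the cord's cell types were present: summed over their lists they held 4229 to 5284 TPM for astrocytes, 17419 to 24888 TPM for oligodendrocytes and 2973 to 3327 TPM for neurons across all libraries. In whole cord, fewer cells of a type and less RNA per cell cannot be told apart.

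All 10 genes passed the filter of 1 TPM. In control mice the order of levels was led by Gpx4 at 627 ± 2.53 TPM (SD, n = 4). Gpx1 (105 ± 6.15 TPM) and Slc3a2 (105 ± 9.75 TPM) followed, with means that differed by less than their SD. Gclm stood at 79.8 ± 5.30 TPM, above Gss at 46.7 ± 3.22 TPM and Gclc at 39.9 ± 0.661 TPM. Gsr (19.0 ± 1.32 TPM) and Nfe2l2 (15.8 ± 0.885 TPM) came next, then Hmox1 at 5.27 ± 0.465 TPM. Slc7a11 was the lowest of the 10 at 3.28 ± 0.129 TPM, and the heavy chain RNA exceeded the light chain RNA 32.1-fold ± 3.37 (SD) in control libraries. The heavy chain protein also serves other light chains.

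**Figure D1:**
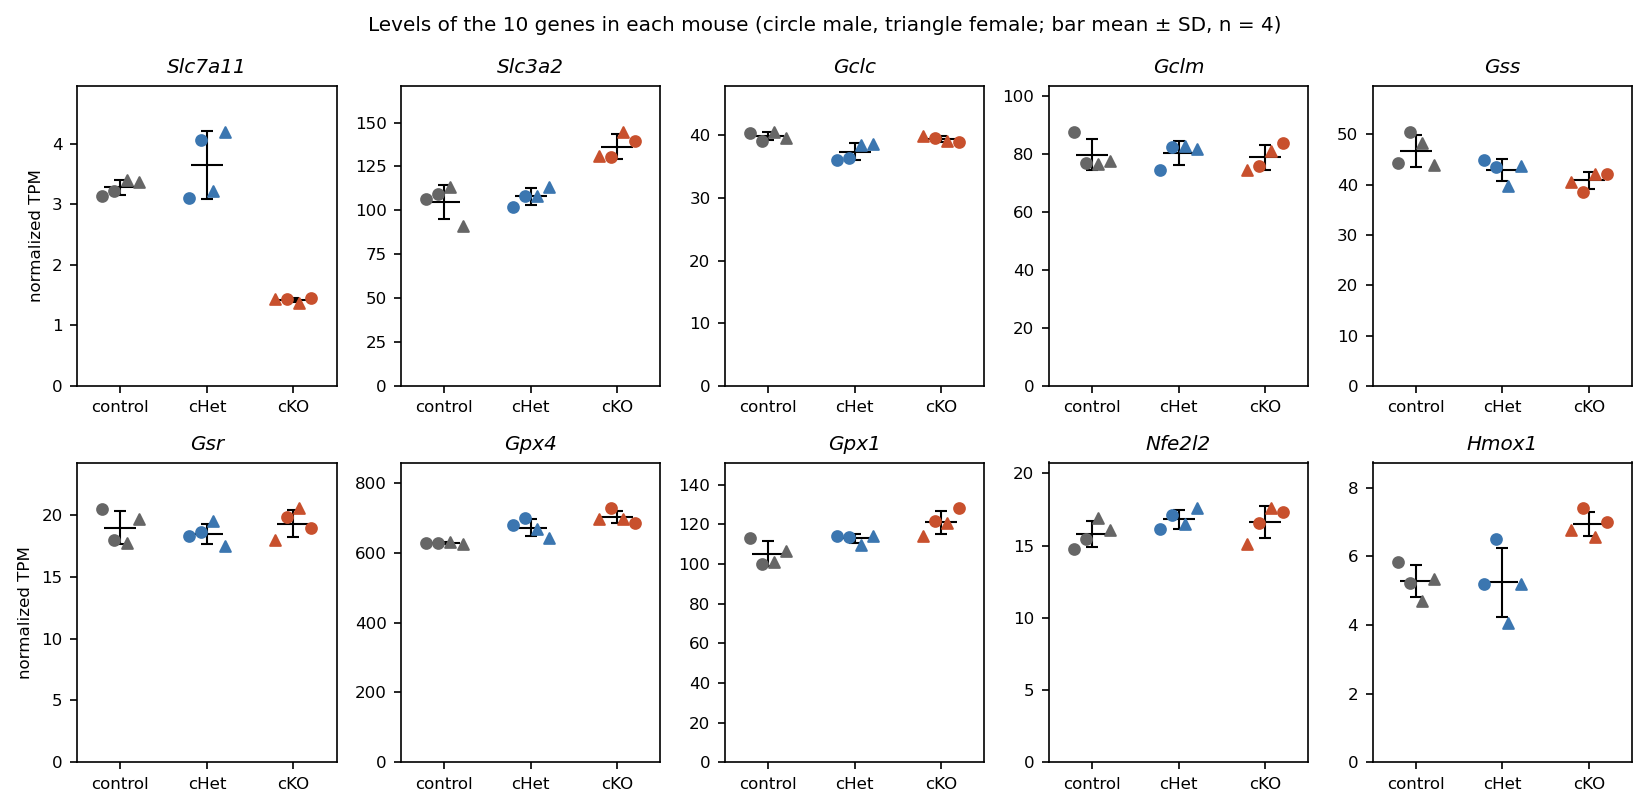
Normalized TPM (y axes, each from 0) of the 10 genes in the 4 control, 4 cHet and 4 cKO mice (x axes), with circles for males, triangles for females and bars for the mean ± SD. The 4 cKO values of Slc7a11 lie between 1.36 and 1.44 TPM, below all control and cHet values, and the 4 cKO values of Slc3a2 lie above them.

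Slc7a11 (ENSMUSG00000027737, chromosome 3, 49892526 to 50443614, minus strand, GRCm38) encodes the light chain that carries cystine and glutamate. Single control mice held 3.13, 3.21, 3.40 and 3.36 TPM, cHet mice 3.09, 4.06, 3.23 and 4.196 TPM, and cKO mice 1.43, 1.43, 1.36 and 1.44 TPM. All 4 cKO mice were below every other mouse, and their spread was small, at 2.65% of the mean against 15.5% in cHet. Mean levels were 3.28 ± 0.129, 3.64 ± 0.564 and 1.42 ± 0.0375 TPM in control, cHet and cKO (SD, n = 4). The log2 change in cKO was -0.98 ± 0.10 (SE) against control and -1.10 ± 0.10 against cHet, ranks 67 and 42 from the most negative of the 15259 genes; these values chose the set and carry no test. With a pseudocount of 0.1 instead of 0.5 the same changes were -1.15 and -1.29. Between cHet and control, which the choice did not rest on, the log2 difference was 0.12 ± 0.10 and was not called (limma adjusted p = 0.694; 95% confidence interval -0.10 to 0.34). The cHet mice overlapped the control mice, with 2 of 4 above the highest control value. By the sex labels, male means were 3.17 TPM in control and 1.44 TPM in cKO, and female means 3.38 and 1.396 TPM.

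Slc3a2 (ENSMUSG00000010095, chromosome 19, 8706882 to 8723369, minus strand) encodes the heavy chain, also known as 4F2hc or CD98. Its level was 106, 109, 113 and 90.9 TPM in control mice, 102, 108, 108 and 113 TPM in cHet mice and 131, 130.3, 145 and 139 TPM in cKO mice. The cKO mice all exceeded the control and cHet mice, in the direction opposite to Slc7a11. The rise was 0.38 ± 0.06 (SE) on the log2 scale against control (limma adjusted p = 0.00317) and 0.33 ± 0.06 against cHet (limma adjusted p = 0.00869). It stayed called under each of the scalings and left-out mice tried, with adjusted p no higher than 0.0164 against control and 0.0307 against cHet. The cHet mice differed from control by 0.04 ± 0.06, which was not called (limma adjusted p = 0.842). The authors' deposited table likewise lists Slc3a2 as higher in cKO, with a likelihood ratio test q of 0.0113 against control and 0.00375 against cHet.

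The ratio of heavy to light chain RNA within a library does not depend on the scaling between libraries. It was 34.0, 34.0, 33.3 and 27.0 in control mice, 32.9, 26.6, 33.6 and 27.0 in cHet mice and 91.4, 91.1, 106 and 96.5 in cKO mice. The mean ratio in cKO, 96.4 ± 7.12 (SD, n = 4), compares with 32.1 ± 3.37 in control and 30.04 ± 3.72 in cHet, a gap that includes the fall of Slc7a11 and is not tested.

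**Figure D2:**
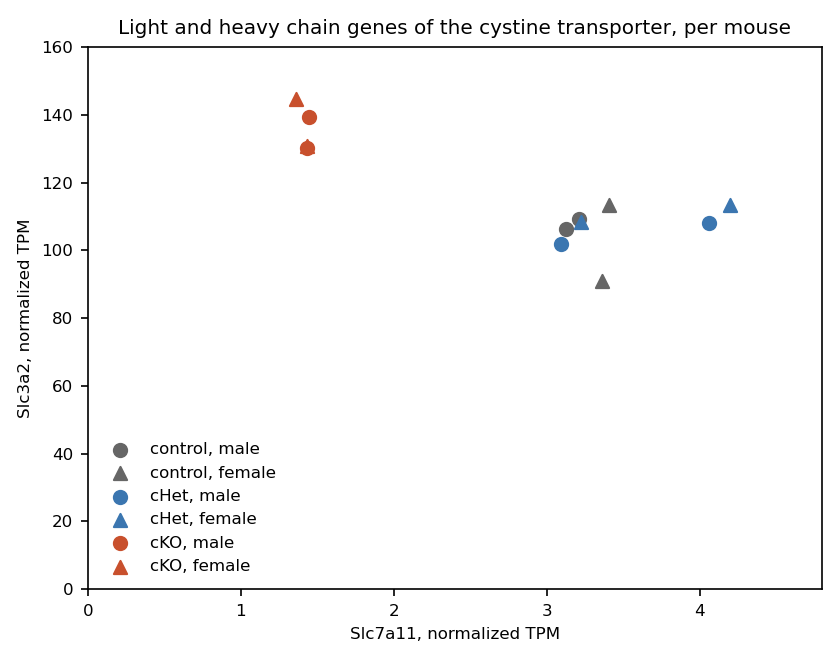
Normalized TPM of Slc7a11 (x axis) and Slc3a2 (y axis), both from 0, with a point for each of the 12 mice, coloured by group and shaped by sex. The cKO mice stand apart at the upper left, with Slc7a11 at or below 1.44 TPM and Slc3a2 at or above 130.3 TPM.

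Because the paired chains moved apart, the sequence just upstream of each gene's RefSeq start is shown (GRCm38.p6, minus strand for both, read 5′ to 3′ and ending at the base before the start). Capitals mark matches to TGATGNAA, the core of the C/EBP-ATF response element, the kind of site bound by ATF4, a transcription factor of amino acid shortage. The other motif searched was TGACNNNGC, the core of the antioxidant response element, the kind of site bound by NRF2. Both strands were searched, and in the windows of these genes no match to one motif shared a base with a match to the other.
Slc7a11, chr3:50443614-50443863: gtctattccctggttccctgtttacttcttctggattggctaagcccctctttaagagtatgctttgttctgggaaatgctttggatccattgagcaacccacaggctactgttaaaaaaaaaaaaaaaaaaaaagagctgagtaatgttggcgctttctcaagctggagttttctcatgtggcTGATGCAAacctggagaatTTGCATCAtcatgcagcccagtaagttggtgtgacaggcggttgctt
Slc3a2, chr19:8713898-8714147: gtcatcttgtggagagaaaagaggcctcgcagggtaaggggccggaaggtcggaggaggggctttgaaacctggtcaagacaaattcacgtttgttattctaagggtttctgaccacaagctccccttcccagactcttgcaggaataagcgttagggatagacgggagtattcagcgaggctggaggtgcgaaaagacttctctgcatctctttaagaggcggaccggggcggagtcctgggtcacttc

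The Slc7a11 window held 2 matches to TGATGNAA and none to TGACNNNGC. They lay 66 to 59 bases (TGATGCAA) and 47 to 40 bases (TTGCATCA, the opposite strand) upstream of the start, facing each other. Of 32851 promoter windows of 300 bases, from 250 before to 50 after a RefSeq start, 3.97% held TGATGNAA at least once and 0.0700% held it 2 or more times. The Slc3a2 window held neither motif; it belongs to the RefSeq start, and the GENCODE gene extends further upstream. Windows were given for 7 of the 10 members, not for Gclc, Gsr and Hmox1. Matches to TGACNNNGC, which 12.4% of all windows held, were found for Gclm and Nfe2l2 and are shown with 10 bases on each side, the match in capitals.
Gclm, plus strand, chr3:122245413-122245441: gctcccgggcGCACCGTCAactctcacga
Nfe2l2, minus strand, chr2:75704885-75704913: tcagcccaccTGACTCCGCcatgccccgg

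The Gclm match lay on the opposite strand to the gene, 134 to 126 bases upstream of the start, and the Nfe2l2 match 240 to 232 bases upstream. Neither gene was called in any comparison. The windows of Gss, Gpx1 and Gpx4 held no match to either motif. A match describes letters only, and factor binding was not measured.

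The first committed step of glutathione synthesis is catalysed by the product of Gclc (ENSMUSG00000032350, chromosome 9, 77754535 to 77794485). Its level was 40.4, 39.2, 40.6 and 39.6 TPM in control mice, 36.1, 36.4, 38.5 and 38.6 TPM in cHet mice and 39.9, 39.6, 39.2 and 38.9 TPM in cKO mice. Control and cKO mice overlapped, with a log2 difference of -0.02 ± 0.03 (limma adjusted p = 0.799; 95% confidence interval -0.09 to 0.05). The cHet mice were all below the control and cKO mice, by 0.09 ± 0.03 against control on the log2 scale, but this was not called (limma adjusted p = 0.320). Against cHet the cKO level was higher by 0.08 ± 0.03, also not called (limma adjusted p = 0.243).

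Gclm (ENSMUSG00000028124, chromosome 3, 122245557 to 122270732) encodes the subunit that raises the ligase's efficiency. Its level was 87.8, 77.1, 76.7 and 77.8 TPM in control mice, 74.4, 82.3, 83.0 and 81.9 TPM in cHet mice and 74.6, 76.02, 81.0 and 84.0 TPM in cKO mice. The groups overlapped throughout, and the log2 difference of cKO from control was -0.02 ± 0.05 (limma adjusted p = 0.904; 95% confidence interval -0.14 to 0.10). The ratio of Gclc to Gclm within a library averaged 0.502 ± 0.0293 for control mice, 0.466 ± 0.0184 for cHet mice and 0.501 ± 0.0330 for cKO mice (SD, n = 4). No difference in this ratio was called for any of the 3 pairs of groups. The exact permutation p (two-sided) was 0.971 for cKO against control, 0.114 for cHet against control and 0.2 for cKO against cHet. After adjustment over 6 tests these were 1, 0.6 and 0.6. The smallest possible p is 0.0286, so full separation in a single comparison alone could not pass 0.05 after adjustment. These tests therefore cannot show that the ratio was alike between groups.

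Gss (ENSMUSG00000027610, chromosome 2, 155563181 to 155592810, minus strand) encodes the enzyme of the last step of synthesis. Control mice held 44.2, 50.5, 48.3 and 43.9 TPM, cHet mice 44.8, 43.5, 39.7 and 43.6 TPM and cKO mice 40.6, 38.5, 42.2 and 42.2 TPM. Every cKO mouse was below every control mouse, and the cHet mice spanned both. The log2 difference of cKO from control was -0.19 ± 0.05 (limma adjusted p = 0.0508), and it passed the threshold after each rescaling of the libraries, with -0.28 and adjusted p = 0.0120 when each library was scaled to a common total. It also passed without control replicate 4 (0.0461) or cHet replicate 3 (0.0414), the latter through the shared estimate of spread, and with a filter of 5 TPM (0.0420). In the other 16 of 22 limma alternatives Gss was not called, with adjusted p up to 0.139. The difference of cHet from control, -0.12 ± 0.05, was not called (limma adjusted p = 0.437). Gss overlaps Acss2 on the opposite strand, and whether the kit marked strand is not given in the sources used here. Acss2 was at 94.4 ± 6.08 TPM in control and 87.5 ± 3.28 TPM in cKO and was not called (limma adjusted p = 0.330), and its part in the Gss values was not tested.

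Glutathione reductase is encoded by Gsr (ENSMUSG00000031584, chromosome 8, 33652523 to 33698163). Its level ran from 17.7 to 20.5 TPM in control mice, 17.5 to 19.5 TPM in cHet mice and 17.9 to 20.5 TPM in cKO mice. The groups overlapped fully, and the log2 difference of cKO from control was 0.03 ± 0.06 (limma adjusted p = 0.855; 95% confidence interval -0.10 to 0.15).

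Gpx4 (ENSMUSG00000075706, chromosome 10, 80047166 to 80056439) encodes the selenoprotein that reduces lipid hydroperoxides in membranes and guards against ferroptosis. Its level was 627, 627, 629.6 and 623 TPM in control mice, 679, 700.04, 667 and 641 TPM in cHet mice and 697, 727, 695 and 686 TPM in cKO mice. Both Cre groups lay entirely above control, whose 4 mice differed by only 0.404% of their mean (SD), and they overlapped each other. In cKO the rise against control was 0.16 ± 0.03 (SE) on the log2 scale (limma adjusted p = 0.00510). With libraries scaled to a common total it was 0.07 and not called (limma adjusted p = 0.133). The differences of cHet from control, 0.10 ± 0.03 (limma adjusted p = 0.260), and of cKO from cHet, 0.06 ± 0.03 (limma adjusted p = 0.287), were not called. The named pseudogene Gpx4-ps2 held 0.419 TPM on average, or 0.0629% of Gpx4.

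Gpx1 (ENSMUSG00000063856, chromosome 9, 108338903 to 108340343) encodes the main cytosolic glutathione peroxidase, also a selenoprotein. Control mice held 113, 100.2, 101 and 107 TPM, cHet mice 114, 114, 109.6 and 114 TPM and cKO mice 114, 122, 121 and 128 TPM. The lowest cKO mouse stood just above the highest control mouse. The rise in cKO against control was 0.20 ± 0.04 (SE) on the log2 scale (limma adjusted p = 0.0156). It was 0.11 with libraries scaled to a common total (adjusted p = 0.0930) and 0.15 when mitochondrially encoded genes were also left out of the total (adjusted p = 0.0520), and was not called in either. Against cHet the difference of 0.10 ± 0.04 was not called (limma adjusted p = 0.262), nor was that of cHet from control, 0.10 ± 0.04 (limma adjusted p = 0.418). The ratio of Gpx1 to Gpx4 averaged 0.168 ± 0.0101 for control mice, 0.168 ± 0.00690 for cHet mice and 0.173 ± 0.0103 for cKO mice (SD, n = 4). A difference of cKO from control was not detected (two-sided exact permutation p = 0.486, 0.771 adjusted). The limit stated for the test of Gclc to Gclm holds here too.

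Nfe2l2 (ENSMUSG00000015839, chromosome 2, 75675513 to 75704641, minus strand) was at 14.8, 15.5, 16.9 and 16.05 TPM in control mice, 16.1, 17.1, 16.5 and 17.6 TPM in cHet mice and 15.1, 16.6, 17.6 and 17.3 TPM in cKO mice. The 3 groups overlapped, and the log2 difference of cKO from control was 0.07 ± 0.06 (limma adjusted p = 0.511; 95% confidence interval -0.05 to 0.20). NRF2 is controlled mainly through the stability of the protein, which RNA levels do not show.

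Hmox1 (ENSMUSG00000005413, chromosome 8, 75093621 to 75100589) encodes the stress-inducible enzyme that breaks down heme. Its level was 5.84, 5.22, 4.70 and 5.33 TPM in control mice, 5.20, 6.51, 4.07 and 5.18 TPM in cHet mice and 6.77, 7.41, 6.58 and 7.01 TPM in cKO mice. All 4 cKO mice were above all 8 others. The log2 differences were 0.37 ± 0.11 against control and 0.39 ± 0.11 against cHet, neither called (limma adjusted p = 0.0652 and 0.0746). With labelled sex as a covariate, though no gene was called between the labelled sexes, both were called (limma adjusted p = 0.0384 and 0.0446). The first was also called when only control and cKO mice were fitted (0.0206) or cHet replicate 2 or 3 was left out (0.0292 and 0.0282). Against cHet it was called without cHet replicate 2 (0.0181). In the other limma alternatives, 18 of 22 against control and 20 of 22 against cHet, Hmox1 was not called, with adjusted p up to 0.156 and 0.174. In the authors' deposited table Hmox1 was higher in cKO than in control with a likelihood ratio test q of 0.0211.

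**Figure D3:**
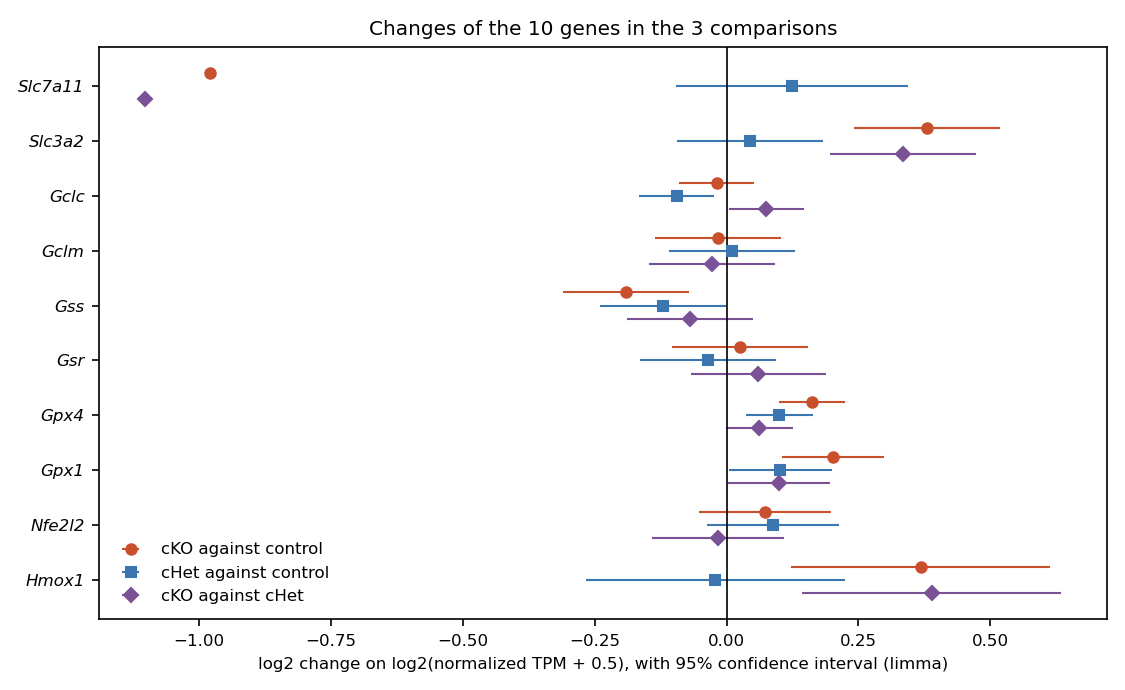
Log2 change (x axis, on log2(TPM + 0.5)) of each of the 10 genes (y axis) for cKO against control, cHet against control and cKO against cHet, with 95% confidence intervals from limma; the changes of Slc7a11 in cKO have no interval because they chose the set. Slc7a11 lies at -0.98 and -1.10 in cKO, Slc3a2 at 0.38 and 0.33, and the cHet against control points of all 10 genes lie between -0.12 and 0.12.

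Of the 9 genes beside Slc7a11, limma called 3 in cKO against control, all higher (Slc3a2, Gpx4 and Gpx1), where 9.00% of all genes tested were called, 5.75% higher and 3.25% lower. At an unadjusted limma p under 0.05 were 5 of the 9, and 22.8% of all genes. Control and cKO values did not overlap for 5 of the 9 (Slc3a2, Gpx4, Gpx1 and Hmox1 higher, Gss lower), as for 17.1% of all genes (10.5% higher, 6.59% lower). These shares stand side by side as a description, since the set was chosen on this contrast. In cKO against cHet 1 of the 9 was called, Slc3a2, with 5.01% of all genes called (2.41% higher, 2.61% lower). In that comparison 3 of the 9 did not overlap (Slc3a2, Gclc and Hmox1, all higher; 11.5% of all genes, 6.14% higher and 5.33% lower), and 4 were at an unadjusted limma p under 0.05 (18.2% of all genes). In cHet against control limma called none of the 10 members and 0.00% of all genes. At an unadjusted limma p under 0.05 in that comparison were 4 of the 10, Gpx4 and Gpx1 higher and Gclc and Gss lower, where 11.3% of all genes were, and the authors' deposited likelihood ratio and Wald tests each gave 0 members at a q under 0.05 (0.00% and 0.156% of all genes). Gclc (lower) and Gpx4 (higher) did not overlap between cHet and control, as for 6.23% of all genes (4.12% higher, 2.10% lower). The authors' deposited likelihood ratio test put 4 of the 9 at a q under 0.05 in cKO against control (Slc3a2, Gpx4, Hmox1 and Gpx1), with 9.42% of all genes listed, and their Wald test also put 4 there (10.2% of all genes). In cKO against cHet the authors' deposited likelihood ratio test put 1 of the 9 there, Slc3a2 (3.78% of all genes), and their Wald test 2, Slc3a2 and Hmox1 (4.94% of all genes). The comparisons share groups, so their values are not independent.

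The counts over all genes depended on the scaling between libraries, while the Slc3a2 call held under each scaling. As deposited, 878 genes were higher and 496 lower in cKO against control, and after median-of-ratios rescaling 692 and 575. With libraries scaled to a common total the split was 352 and 1666, and without mitochondrially encoded genes it was 467 and 813. Nfe2l2 and Gsr, neither called, changed sign under such rescaling.

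**Figure D4:**
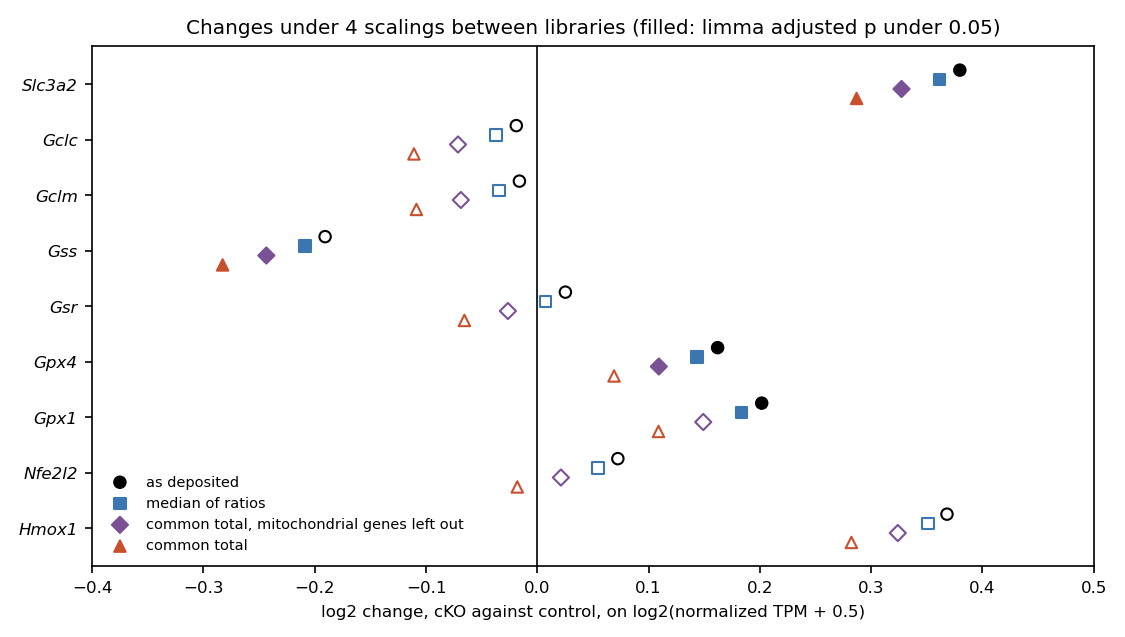
Log2 change in cKO against control (x axis) of the 9 genes beside Slc7a11 (y axis) under 4 scalings between libraries (as deposited, by median of ratios, and to a common total with or without mitochondrially encoded genes); filled symbols mark a limma adjusted p under 0.05. Slc3a2 is filled under all 4, Gpx4 under 3 and Gpx1 under 2, while Gss is filled under each rescaling and open as deposited.

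The heavy chain also pairs with other light chains, each with its own amino acids. In cKO against control 2 of 5 such genes rose and none fell, where 5.75% of all genes were called higher and 3.25% lower. Against cHet those shares were 2.41% and 2.61%, and they also stand beside the lists below. With libraries scaled to a common total, 352 genes were called higher and 1666 lower against control. Against cHet that scaling gave 253 and 660. Slc7a10, an astrocyte transporter of small neutral amino acids such as serine, rose from 120.0 ± 4.58 to 173 ± 12.5 TPM (log2 change 0.53 ± 0.08, limma adjusted p = 0.00185). Slc7a5, the large neutral amino acid transporter, rose from 34.1 ± 3.64 to 45.6 ± 5.09 TPM (limma adjusted p = 0.0338), and the call failed in 10 of 22 alternatives. Both also rose against cHet, by 0.54 ± 0.08 and 0.48 ± 0.11 on the log2 scale (limma adjusted p = 0.00198 and 0.0242). Slc7a6, Slc7a7 and Slc7a8 were not called in any comparison. The Slc7a5 call against cHet was lost in 6 of 22 alternatives. With libraries scaled to a common total, Slc7a10 alone of the 5 was called in cKO against control, and both were called against cHet.

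Further genes that use, recycle or move glutathione were examined as a list. Of 29 tested, 5 rose and none fell in cKO against control, beside 5.75% and 3.25% of all genes. The median log2 change was 0.07 beside 0.01 for all genes. With libraries scaled to a common total 1 rose and 1 fell, with a median of -0.03 beside -0.07 for all genes. Gpx3, a secreted glutathione peroxidase, rose from 19.3 ± 1.502 to 25.9 ± 1.401 TPM (limma adjusted p = 0.00615) and was called in all 22 alternatives. Slc25a39, a mitochondrial carrier needed for glutathione import, rose by 0.19 ± 0.04 on the log2 scale (limma adjusted p = 0.0138), and the glutaredoxin gene Glrx by 0.15 ± 0.03 (0.0169); both calls were lost with libraries scaled to a common total. Against cHet only Gpx3 rose (0.36 ± 0.08, limma adjusted p = 0.0193) and none fell; with libraries scaled to a common total 1 rose and 2 fell. This Gpx3 call was lost in 2 of 22 alternatives, without cKO replicate 1 or 4 (adjusted p up to 0.0620).

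Cysteine can also come from methionine or be spent on taurine. Of 14 genes of cysteine supply 3 rose and none fell in cKO against control (median 0.02), beside 5.75% and 3.25% of all genes. With libraries scaled to a common total none of the 14 was called. The 3 were Cdo1, which starts cysteine breakdown (18.4 ± 0.968 to 21.2 ± 1.20 TPM, limma adjusted p = 0.0312), Mpst, a sulfur transferase (36.9 ± 2.03 to 42.4 ± 2.60 TPM, 0.0318), and Cth, which makes cysteine from cystathionine (4.08 ± 0.269 to 6.03 ± 1.34 TPM, 0.0334). None of the 14 was called against cHet, where Cdo1 had the smallest p (limma adjusted p = 0.0572).

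Genes around NRF2 were compared next. None of 11 NRF2 regulators was called in cKO against control, where 9.00% of all genes were (1 of the 11 fell with libraries scaled to a common total). Maff, a small MAF partner, had the smallest p (2.26 ± 0.350 and 2.97 ± 0.238 TPM, limma adjusted p = 0.0727). Of 20 other NRF2 target genes 5 rose and none fell, beside 5.75% and 3.25% of all genes, with a median log2 change of 0.10. With libraries scaled to a common total 1 rose and 2 fell, with a median of 0.01 beside -0.07 for all genes. Ftl1, the ferritin light chain gene, rose from 357 ± 16.2 to 435 ± 28.4 TPM (limma adjusted p = 0.00426) and was called in all 22 alternatives. Me1, an enzyme that makes NADPH, rose by 0.20 ± 0.05 on the log2 scale (limma adjusted p = 0.0191) and Prdx1, a peroxiredoxin gene, by 0.14 ± 0.03 (0.0279), and these calls failed in 5 and 10 of 22 alternatives. Against cHet, where with libraries scaled to a common total none rose and 1 fell, only Ephx1 rose (0.29 ± 0.07, limma adjusted p = 0.0447), and the call failed in 13 of 22 alternatives.

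ATF4 drives Slc7a11, Slc3a2 and genes of amino acid synthesis. Of 20 other ATF4 genes 1 rose and 2 fell in cKO against control, beside 5.75% and 3.25% of all genes. The median log2 change was 0.07. With libraries scaled to a common total none rose and 4 fell, with a median of -0.02 beside -0.07 for all genes. Phgdh, the first enzyme of serine synthesis, fell from 83.2 ± 5.36 to 62.2 ± 1.64 TPM (log2 change -0.41 ± 0.04, limma adjusted p = 0.000184). Psat1, the next enzyme, fell from 133 ± 7.92 to 118 ± 2.24 TPM (limma adjusted p = 0.0400), and the call failed in 11 of 22 alternatives. The gene that rose was Slc7a5, given above. The same 3 genes were called against cHet, Phgdh by -0.41 ± 0.04 (limma adjusted p = 0.000227) and Psat1 by -0.26 ± 0.05 (0.00830).

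Other genes of peroxide and superoxide defence, such as superoxide dismutases, catalase and peroxiredoxins, were examined as a list. Of 14 such genes 8 rose and none fell in cKO against control, beside 5.75% and 3.25% of all genes. The median log2 change was 0.13. With libraries scaled to a common total 5 rose and 1 fell, with a median of 0.04 beside -0.07 for all genes. Sod3, the secreted superoxide dismutase, rose from 4.95 ± 0.499 to 9.34 ± 0.418 TPM (log2 change 0.85 ± 0.09, limma adjusted p = 0.000153). The mitochondrial thioredoxin gene Txn2 rose from 96.5 ± 2.33 to 113 ± 2.01 TPM (0.000681), and Prdx6, whose product reduces phospholipid hydroperoxides, from 280.2 ± 19.9 to 355 ± 19.98 TPM (0.00209). These 3 were called in all 22 alternatives. Against cHet 4 of the 14 rose and none fell, beside 2.41% and 2.61% of all genes. Among the 4 were Sod3 (0.78 ± 0.09, limma adjusted p = 0.000335), Txn2 (0.18 ± 0.03, 0.00409) and Prdx6 (0.28 ± 0.05, 0.00882). In cHet against control no gene of any of these lists was called, as none of the 15259 genes tested was. The smallest p in each of the last 2 lists belonged to Vldlr (limma adjusted p = 0.451) and Sod2 (0.297).

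**Figure D5:**
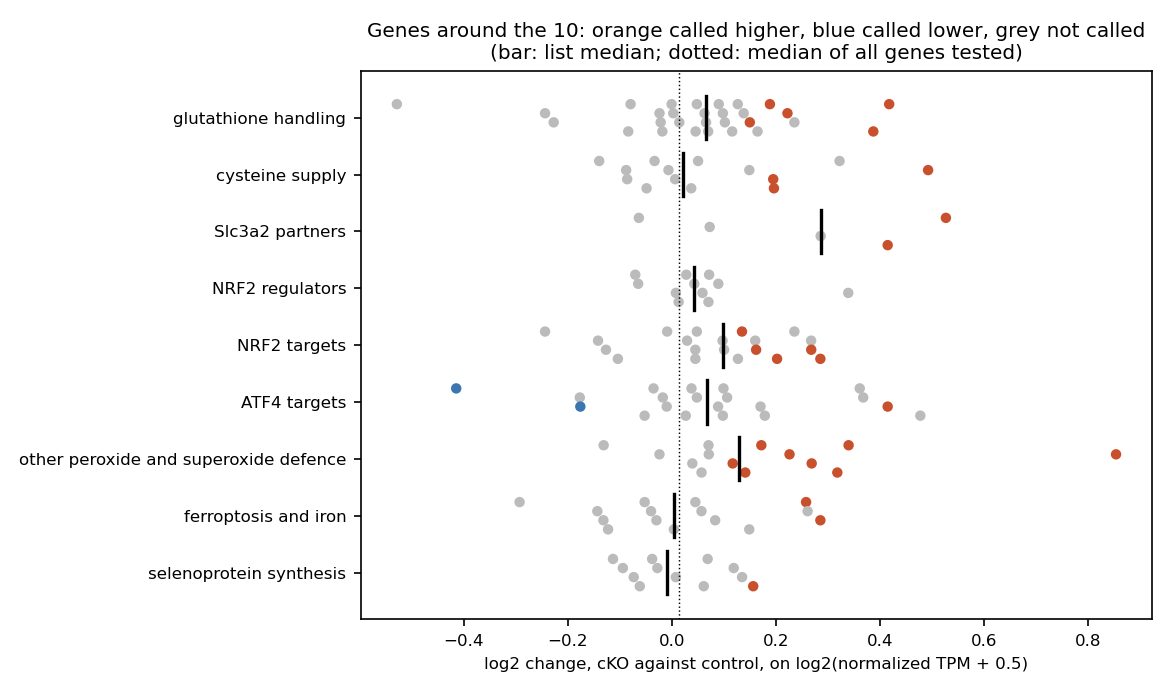
Log2 change in cKO against control (x axis) of the genes in each list around the 10 members (y axis), with a point per gene, orange where called higher, blue where called lower and grey where not called; bars are list medians and the dotted line is the median of all genes tested, 0.01. Called genes lie mostly to the right, up to Sod3 at 0.85, and the called falls are Phgdh at -0.41 and Psat1 at -0.18.

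Cell type markers were compared as well. Their counts in cKO against control stand beside 5.75% of all genes called higher and 3.25% called lower. Astrocyte markers, of which 3 of 12 rose and 2 fell in cKO against control, summed to 4229 to 4450 TPM in control, 4385 to 4584 TPM in cHet and 4882 to 5284 TPM in cKO. The sum does not describe each marker. Gfap was among those that rose (1175 ± 55.5 to 1391 ± 135 TPM, limma adjusted p = 0.0386), and its call failed in 13 of 22 alternatives. Slc1a3 was among those that fell (45.7 ± 1.40 to 30.2 ± 1.23 TPM, limma adjusted p = 1.53e-05), called in all 22. Microglial markers, of which 5 of 8 rose (1 of 8 with libraries scaled to a common total), summed to 198 to 207, 199.9 to 219 and 241 to 257 TPM. Oligodendrocyte markers, of which 5 of 8 fell (8 of 8 with that scaling), summed to 20915 to 21911, 20942 to 24888 and 17419 to 19828 TPM. Meningeal fibroblast markers, of which 1 of 7 tested rose, summed to 33.5 to 39.3, 33.6 to 42.3 and 37.9 to 43.9 TPM, and macrophage markers to 2.56 to 5.32, 3.67 to 4.57 and 3.40 to 4.34 TPM. Red blood cell markers, of which none of 5 was called, ran from 1094 to 2726 TPM in control, 816 to 1890 in cHet and 1070 to 5123 in cKO. Of 8 neuronal markers 2 rose and none fell, and no tested marker of oligodendrocyte precursors, endothelial cells and pericytes, Schwann cells or ependymal cells was called. With libraries scaled to a common total 1 of the 8 neuronal markers rose and 2 of 6 oligodendrocyte precursor markers fell. No marker was at 0 in all libraries. The part of cell composition in the changes of Slc7a11, Slc3a2, Gpx1, Gpx4 and Hmox1 was not tested.

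By the labels each group held males and females in equal number. None of the 10 was called between males and females, and neither was any of the 15259 genes (limma with group as a term, 0.00% called, 5.91% at an unadjusted p under 0.05). No gene thus bore out the sex labels, so they may not fit every library, and whether they do was not tested. All values split by sex rest on the labels alone. The smallest p was that of Hmox1, at 6.20 TPM on average in males and 5.44 in females (log2 difference 0.18 ± 0.08, limma adjusted p = 0.838). For the 9 genes beside Slc7a11, no difference in the change between the sexes was called in any comparison (limma interaction, adjusted p at or above 0.963); with 2 mice per sex in each group this does not show that the sexes changed alike.

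Genes with a pattern like that of Slc7a11 were ranked by Pearson's r of log2 values over the 12 mice, a description in which the cKO mice form a cluster of their own. The highest were Fzd1 (r = 0.976), Glul (0.976), Myrf (0.974), Plekhg3 (0.973), Fgl2 (0.972) and Slc1a3 (0.972). Within the 8 control and cHet mice their r with Slc7a11 ran from 0.308 for Fgl2 to 0.789 for Fzd1. Glul, the glutamine synthetase gene of astrocytes, was at 1036 ± 47.5, 1086 ± 69.4 and 795 ± 16.8 TPM in control, cHet and cKO (SD, n = 4), and Slc1a3, a glutamate transporter gene, at 45.7 ± 1.40, 46.2 ± 2.17 and 30.2 ± 1.23 TPM. Myrf, a transcription factor gene of myelination, was at 54.3 ± 1.33, 56.1 ± 3.37 and 41.9 ± 1.11 TPM. The lowest r belonged to Ppp6c (-0.973), Scara3 (-0.970) and Rasl12 (-0.970), which were higher in cKO. Rasl12, for example, averaged 6.27 ± 0.306 TPM for control mice, 6.13 ± 0.576 TPM for cHet mice and 12.98 ± 1.37 TPM for cKO mice.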

How the data were processed

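RNA was measured in spinal cord of 12 mice, 4 per genotype group, each library from a separate mouse by its label. Tissue was snap-frozen, extracted with Trizol and turned into TruSeq libraries, per the labels' protocols. The submitters' processing notes name kallisto 0.44.0, sleuth 0.30.0 and GRCm38; the sources used here do not give the annotation release or the strand setting. The authors deposited normalized TPM per gene as a signal that is never negative, and, for each pair of groups, p-values and q-values from likelihood ratio and Wald tests. The authors' deposited effect estimate, presumably on a natural log scale, was used only for its sign.

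The members and gene lists were chosen with earlier results of these data known, and the groups and tests follow an earlier treatment of them. Genes whose mean reached 1 TPM (15259 of 36121) were fitted on log2(TPM + 0.5) with limma 3.58.1 in R 4.3.3 (eBayes with trend, all 12 mice, no covariate, two-sided), with Benjamini-Hochberg adjustment over all genes of a comparison. The step was tested on simulated data with known changes. Ratios within a library were compared with exact permutation tests over 70 assignments (scipy 1.17.1). Named genes are the 10 members, Tardbp, up to 3 called genes of each list per comparison (or the gene with the smallest p), and the genes most and least like Slc7a11. Some genes are in more than 1 list (Ftl1, Fth1, Slc7a5, Chac1, Gstm1, Gsta4, Abcc1). Coordinates are from GENCODE M21 (GRCm38) and promoter sequences from RefSeq (GRCm38.p6). Alternatives were other pseudocounts, filters and scalings, sex as a covariate, no trend, the 2 groups alone and each mouse left out.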

Additional observations from a re-analysis of the deposited data

Results flagged for a closer look

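Values were flagged where the lowest or highest mouse of a group of 4 stood apart from the other 3. Of 39 groups examined (10 genes and 3 ratios in 3 genotype groups) 5 were flagged, and chance flags about 1 in 20; the ratios reuse the genes' values. Slc7a11 was lowest in cKO replicate 3, at 1.36 TPM, although the cKO range is only 1.36 to 1.44 TPM. Gclm was highest in control replicate 1, at 87.8 TPM, and lowest among cHet mice in replicate 1, at 74.4 TPM. Without control replicate 1 the log2 difference of Gclm between cKO and control was 0.03 in place of -0.02, not called in either case. Gpx1 was lowest among cHet mice in replicate 3, at 109.6 TPM. The ratio of Slc3a2 to Slc7a11 was lowest among control mice in replicate 4, at 27.0, the mouse with the lowest Slc3a2 (90.9 TPM).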

How the results depend on the processing

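No paired analysis was possible because the labels give each mouse its own number and no replicate numbers shared between groups. The calls of Slc3a2 held in every alternative run. Slc7a11, whose fall in cKO chose the set and carries no test, ran from -1.15 to -0.82 against control and -1.29 to -0.93 against cHet. With each mouse left out in turn, 3 to 5 of the 9 members were called in cKO against control (5 without cHet replicate 3, adding Gss and Hmox1), 1 to 2 in cKO against cHet and 0 in cHet against control. With sex as a covariate 2 were called in cKO against cHet. With a mouse left out, genes called in cKO against control ran from 815 (without cKO replicate 2) to 1513, with 907 without control replicate 2 and 891 without cKO replicate 4; the other alternatives gave 1049 (no filter) to 2018 (libraries scaled to a common total). In cHet against control 0 to 1 gene was called with a mouse left out, and 2 with no filter. Signs that turned were of uncalled members. In cKO against control Gsr was -0.066 with libraries scaled to a common total and -0.026 without mitochondrially encoded genes, and Nfe2l2 was -0.018 in the former. In cHet against control Slc3a2 was -0.0066 and -0.0087 under these, and Gclm was -0.041, -0.043 and, after median-of-ratios rescaling, -0.0019. With a mouse left out, the log2 difference in cKO against control ran from -0.046 to 0.030 for Gclm and -0.0054 to 0.062 for Gsr. In cHet against control it ran from -0.022 to 0.083 for Slc3a2, -0.0076 to 0.057 for Gclm, -0.066 to 0.0016 for Gsr and -0.12 to 0.083 for Hmox1, and in cKO against cHet from -0.042 to 0.028 for Nfe2l2. The log2 ratio of Gclc to Gclm in cKO against control ran from -0.044 to 0.034, and that of Gpx1 to Gpx4 from -0.024 to 0.039 in cHet against control and from -0.00073 to 0.065 in cKO against cHet. The cause of these shifts was not tested. Depth is unknown, so no counting limit is given for low genes such as Slc7a11.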

Other observations

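Iron and lipid peroxidation genes, which together with glutathione set the conditions for ferroptosis, were mostly not called. Of 15 tested, 2 rose in cKO against control, Ftl1 and Aifm2, and none fell, beside 5.75% and 3.25% of all genes. The median log2 change was 0.00. With libraries scaled to a common total 1 rose and 1 fell, with a median of -0.08 beside -0.07 for all genes. Aifm2, which encodes a glutathione-independent suppressor of lipid peroxidation, rose from 14.8 ± 0.904 to 17.8 ± 1.16 TPM (SD, n = 4; limma adjusted p = 0.0352), and the call failed in 9 of 22 alternatives. None was called against cHet or between cHet and control (with libraries scaled to a common total 2 fell against cHet), and Slc11a2, an iron transporter gene, had the smallest p in both, at 30.3 ± 1.01, 25.997 ± 1.403 and 29.5 ± 1.27 TPM in control, cHet and cKO (limma adjusted p = 0.168 for cHet against control and 0.0526 for cKO against cHet).

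Gpx1 and Gpx4 need selenocysteine, and genes of selenoprotein synthesis and other selenoproteins were examined as a list of 12. In cKO against control Selenow rose (685 ± 15.6 to 764 ± 37.9 TPM, limma adjusted p = 0.0383), and the call failed in 12 of 22 alternatives. No other of the 12 was called, where 5.75% of all genes were called higher and 3.25% lower. With libraries scaled to a common total none rose and 3 fell. Selenop, the selenium carrier gene, was the only one called against cHet (2 fell with libraries scaled to a common total) and was lower in cKO (372 ± 4.41 and 438 ± 20.7 TPM, limma adjusted p = 0.00152), and the call held in all 22 alternatives, while its control level was 397 ± 10.2 TPM and cHet against control was not called (limma adjusted p = 0.180).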
